A study of Homo sapiens with 6 samples.

Results

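FOXA2, HES1, WNT7B, CDH3 and TMPRSS2 are 5 genes grouped here as foregut, Notch, WNT and epithelial genes. They were taken by symbol from a table of 405 genes that the authors had selected as differing between the groups, so a difference in each was given by the choice and is described here without a test. Each had 1 row and 1 probe set in that table, and all 5 were found by probe set number in the value table of 32321 probe sets that the authors deposited for all 6 arrays. Panc-1 is an established line of human pancreatic ductal carcinoma cells. One group of 3 arrays held Panc-1 cells transfected with pCIG carrying Gli3T, a dominant-negative form of the Gli transcription factors that represses their target genes, joined by an internal ribosome entry site to GFP. The other group of 3 held Panc-1 cells transfected with the empty pCIG vector. All cells received a Lipofectamine reagent, were sorted for GFP and gave total RNA 24 h after transfection, so both groups share the transfection, the vector and the sort. The expression was transient, the promoter driving Gli3T was not named in the sources used here, and no label says that the 3 arrays of a group came from separate cultures. The spread between arrays may therefore be technical.

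Gli proteins carry the hedgehog signal into the nucleus, where full-length forms activate and truncated forms repress. FOXA2 is a pioneer transcription factor of foregut endoderm that opens chromatin at pancreatic genes, and in the mouse floor plate it is a known Gli target. HES1, the classical Notch target, is a transcriptional repressor that keeps mouse pancreatic progenitors from becoming endocrine cells. WNT7B is a secreted ligand that epithelial cells send to their neighbours, CDH3 encodes the adhesion molecule P-cadherin, and TMPRSS2 encodes a type II transmembrane serine protease that cleaves proteins at the cell surface.

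HES1 was the only gene of the 5 found in the RefSeq promoter table used here; FOXA2, WNT7B, CDH3 and TMPRSS2 were not. Its promoter is shown because the Notch signal is known to act on it directly, through the DNA-binding protein RBPJ. The window runs from 250 bases before to 50 bases after the RefSeq start site, on GRCh38.p14 at chr3:194135898-194136197, plus strand. Capitals mark TGGGAA, the core letters bound by RBPJ.
HES1: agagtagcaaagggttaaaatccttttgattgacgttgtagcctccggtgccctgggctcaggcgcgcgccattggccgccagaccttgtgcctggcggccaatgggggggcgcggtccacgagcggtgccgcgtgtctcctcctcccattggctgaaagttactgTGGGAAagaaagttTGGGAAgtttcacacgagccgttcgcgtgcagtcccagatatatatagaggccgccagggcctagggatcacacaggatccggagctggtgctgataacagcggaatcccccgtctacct
The letters TGGGAA stood at 2 places, beginning 84 and 70 bases before the start site. Of 35116 promoter windows of the same length, 24.0% held TGGGAA on either strand. The letters CACNAG of the N box, which HES1 protein itself binds, were found at 4 places on either strand, against 38.0% of all windows holding at least 1. GACCACCCA, the consensus bound by Gli proteins, was not in the window, and 0.236% of all windows held it. TGTTTAC, bound by FOXA factors, and ATCAAAG, bound by TCF and LEF factors, were not in it either, with 3.42% and 2.62% of all windows holding them. No searched motif overlapped a TGGGAA. The window held 21 CpG sites, against a median of 14.

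The selected table had to be set against the value table before any of its cells was read. In its 266 ordinary rows, 263 of which had a probe set in the value table, the columns of the first 5 arrays differed from the value table by a median of at most 0.0095 log2. The column headed Gli3T replicate 3 did not follow its rows there, with a median gap of 0.818 log2 and a correlation of 0.0658 with that array. In the 139 displaced rows the values stood 1 cell to the right. Their column headed empty vector replicate 2 lay within a median of 0.0094 log2 of empty vector replicate 1, and so on along the row to Gli3T replicate 2.

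All 5 genes stood in ordinary rows, so their cells for Gli3T replicate 3 were wrong in the selected table. For FOXA2 that cell read 11.24, where the value table gave 10.54. CDH3 read 10.30 in place of 9.57, and TMPRSS2 10.52 in place of 9.88. The cells of HES1 and WNT7B were too low instead, at 9.74 in place of 10.07 and 10.44 in place of 11.03. Every other cell of the 5 genes lay within 0.01 log2 of the value table. The third array labelled Gli3T can thus be given for each gene, and all values below are from the value table.

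**Figure D1:**
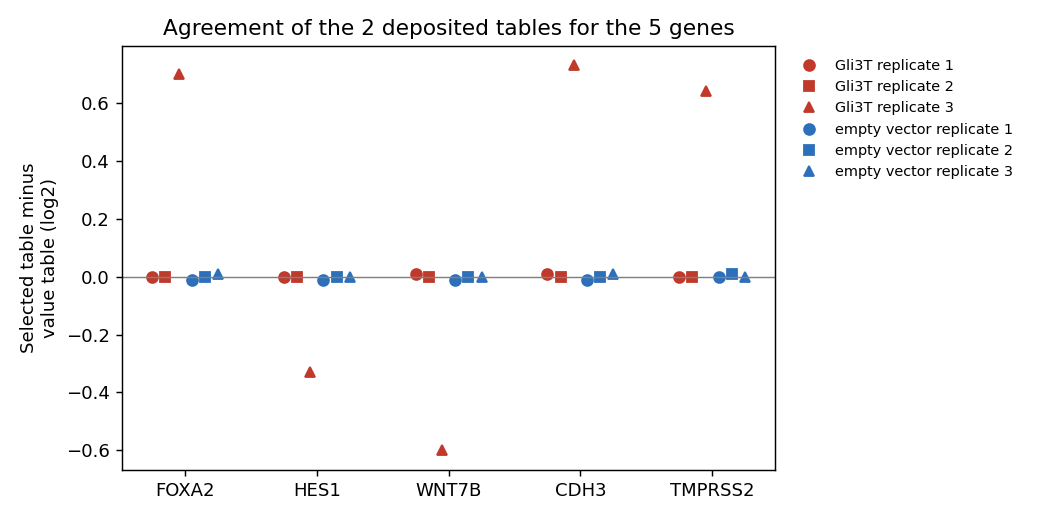
The vertical axis is the selected table's log2 value minus the value table's for the same gene and array, with Gli3T arrays in red and empty vector arrays in blue. The cells headed Gli3T replicate 3 lie from -0.60 (WNT7B) to 0.73 (CDH3), and all other points within 0.01 of 0.

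GLI3, the gene from which Gli3T derives, read 8.0, 7.92 and 7.71 log2 in the arrays labelled Gli3T (replicates 1 to 3) and 9.20, 9.12 and 9.31 in the arrays labelled empty vector. GLI3 was thus lower where the labels place the construct, by a log2 difference of -1.34 ± 0.10 (SE). Whether this probe set reads the transfected sequence was not known, so the groups are called by their labels and every direction below rests on them. PTCH1, which encodes the receptor for hedgehog ligands and is a classical target of Gli activators, averaged 9.02 ± 0.12 in the arrays labelled Gli3T and 8.11 ± 0.17 in the arrays labelled empty vector (SD, n = 3 each). PTCH1 was thus higher under the Gli3T label, by 0.91 ± 0.12 log2 (SE), although Gli3T is described as repressing Gli target genes. The reason was not tested. Medians over all probe sets ran from 8.38 to 8.53 log2 among the arrays. The median SD of a probe set was 0.08 log2 over the arrays labelled Gli3T and 0.18 over those labelled empty vector.

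Each of the 5 genes read higher in all 3 arrays labelled Gli3T than in any array labelled empty vector. The mean difference was 2.46-fold for TMPRSS2, 2.14-fold for FOXA2, 1.83-fold for WNT7B, 1.6-fold for CDH3 and 1.5-fold for HES1. Of all probe sets measured, 11.4% stood higher without overlap in the arrays labelled Gli3T, and 13.0% stood lower. The choice of the genes used that contrast, so nothing is read from their count against those shares.

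FOXA2 (probe set 8065344) read 10.55, 10.45 and 10.54 log2 in the arrays labelled Gli3T and 9.45, 9.54 and 9.24 in the arrays labelled empty vector. The lowest Gli3T array lay 0.91 log2 above the highest empty vector array, while the empty vector arrays spanned 0.30. The means were 10.51 ± 0.05 in the arrays labelled Gli3T and 9.41 ± 0.15 in those labelled empty vector (SD, n = 3 each), a log2 difference of 1.10 ± 0.09 (SE).

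HES1 (probe set 8084880) read 10.11, 10.05 and 10.07 log2 in the arrays labelled Gli3T and 9.52, 9.58 and 9.37 in the arrays labelled empty vector. The arrays labelled Gli3T were nearly level, and the groups were 0.47 log2 apart at their nearest. The means were 10.08 ± 0.03 in the arrays labelled Gli3T and 9.49 ± 0.10 in those labelled empty vector (SD, n = 3 each). HES1 had the smallest log2 difference of the 5 genes, 0.58 ± 0.06 (SE). That is also the smallest absolute difference of any gene of the selected table found in the value table, to 2 decimals, and 1.5-fold is 0.58 on the log2 scale. HES1 thus stood among the smallest differences that the authors selected.

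WNT7B (probe set 8076734) read 11.02, 10.94 and 11.03 log2 in the arrays labelled Gli3T and 9.86, 10.33 and 10.17 in the arrays labelled empty vector. Empty vector replicate 1 was the low array here, and the groups were still 0.61 log2 apart at their nearest. The means were 11.00 ± 0.05 in the arrays labelled Gli3T and 10.12 ± 0.24 in those labelled empty vector (SD, n = 3 each), a log2 difference of 0.87 ± 0.14 (SE).

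CDH3 (probe set 7996819) read 9.58, 9.51 and 9.57 log2 in the arrays labelled Gli3T and 8.91, 8.93 and 8.78 in the arrays labelled empty vector. Both groups were tight for P-cadherin, with spans of 0.08 log2 over the arrays labelled Gli3T and 0.15 over those labelled empty vector. It averaged 9.55 ± 0.04 in the arrays labelled Gli3T and 8.87 ± 0.08 in those labelled empty vector (SD, n = 3 each), a difference of 0.68 ± 0.05 log2 (SE).

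TMPRSS2 (probe set 8070467) read 10.01, 9.83 and 9.88 log2 in the arrays labelled Gli3T and 8.27, 8.79 and 8.74 in the arrays labelled empty vector. Empty vector replicate 1 lay at -0.33 log2 from its group mean, and the protease gene had the widest spread of the 5 in both groups. The means were 9.90 ± 0.09 in the arrays labelled Gli3T and 8.60 ± 0.29 in those labelled empty vector (SD, n = 3 each), a log2 difference of 1.30 ± 0.17 (SE). Without empty vector replicate 1 the difference was 1.14 log2.

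**Figure D2:**
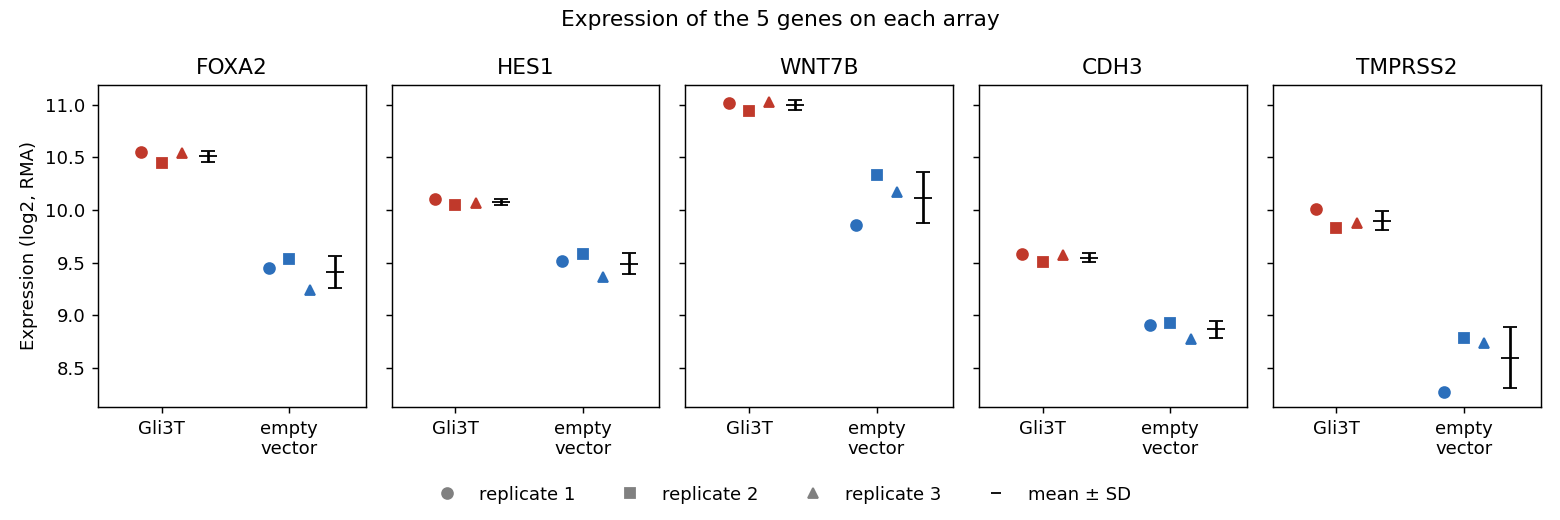
Expression (log2, RMA) of each gene on each array, Gli3T at left in red and empty vector at right in blue, with the marker shape giving the replicate and the black bar the mean ± SD. In each panel the 3 Gli3T arrays lie above the 3 empty vector arrays, and WNT7B and TMPRSS2 have a low empty vector replicate 1.

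In the order of their differences, the gaps between neighbours were of the size of their standard errors, save for HES1 and CDH3. The log2 difference of FOXA2 minus that of TMPRSS2 was -0.20 ± 0.20 (SE over arrays). FOXA2 exceeded WNT7B by 0.23 ± 0.16 and WNT7B exceeded CDH3 by 0.19 ± 0.15. HES1 minus CDH3 was -0.10 ± 0.02, with a small error, both genes having moved alike from array to array. Probe sets can differ in how far they compress a difference, so this order is one of the measured values.

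Leaving out each array in turn gave log2 differences of 1.02 to 1.17 for FOXA2, 0.53 to 0.63 for HES1 and 0.75 to 0.98 for WNT7B. For CDH3 they ran from 0.64 to 0.71 and for TMPRSS2 from 1.14 to 1.40. The lowest value came without empty vector replicate 3 for FOXA2, HES1 and CDH3, and without empty vector replicate 1 for WNT7B and TMPRSS2.

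**Figure D3:**
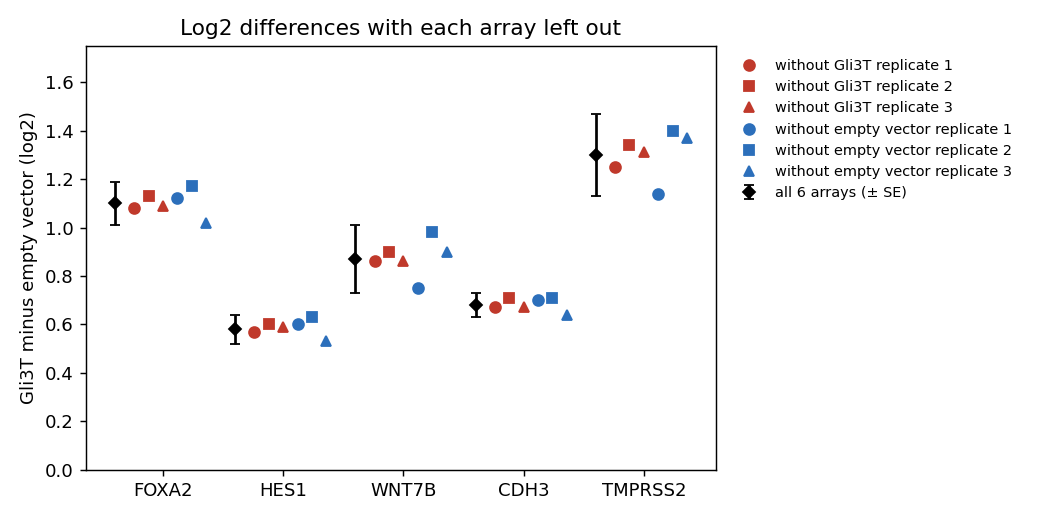
The vertical axis is the log2 difference, Gli3T minus empty vector. Black diamonds show all 6 arrays with the SE, and coloured points the value with 1 array left out, from 0.53 for HES1 to 1.40 for TMPRSS2.

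Over the empty vector arrays the 5 genes differed in which array was lowest, though replicate 2 was highest for all 5. Their SDs there were 0.15 (FOXA2), 0.10 (HES1), 0.08 (CDH3), 0.24 (WNT7B) and 0.29 (TMPRSS2). The median SD over all probe sets there was 0.18. For FOXA2, HES1 and CDH3 replicate 3 was lowest, at -0.17, -0.12 and -0.09 log2 from the group mean, and replicate 1 lay 0.03 to 0.04 above it. For WNT7B and TMPRSS2 replicate 1 was lowest, at -0.26 and -0.33. The median over all probe sets was 8.53 log2 in empty vector replicate 1 and 8.42 in replicates 2 and 3. That offset was not removed from these small deviations. Among the arrays labelled Gli3T, replicate 2 was lowest for all 5 genes, by at most 0.08 log2 from the group mean. The same array was lowest for 207 of the 262 genes of the selected table with a positive difference (79.0%) and for 38.8% of all probe sets. Empty vector replicate 1 was lowest in its group for 69.8% of those 262 genes and replicate 3 for 24.0%. Over all probe sets replicate 1 was lowest for 36.1% and replicate 3 for 38.0%. The 262 genes were selected for a difference between these same arrays, which bears on which array is lowest. Nothing is therefore read from their shares about the 5 genes.

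**Figure D4:**
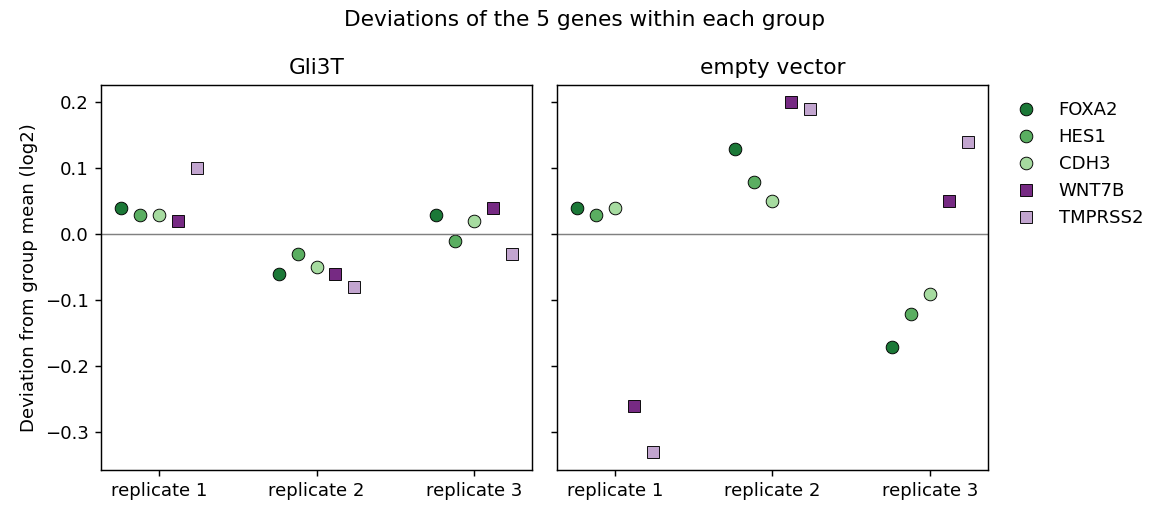
Deviation of each gene from its group mean (log2) on each array, Gli3T at left and empty vector at right. Circles in green (FOXA2, HES1, CDH3) are lowest in empty vector replicate 3, and squares in purple (WNT7B, TMPRSS2) in empty vector replicate 1, down to -0.33 for TMPRSS2.

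Likeness of pattern was measured as Pearson's r over the 6 arrays, among 11171 other probe sets with an SD of at least 0.2 log2. The arrays form 2 groups, so the gap between groups carries much of every r, and 383 to 818 probe sets reached 0.95 with a given gene. CDH3 was the probe set most like FOXA2 (r = 0.9992), and FOXA2 the most like CDH3, among all those compared. The 3 named genes most like FOXA2 were CDH3, ORAI3, a calcium channel subunit (0.9990), and HES1 (0.9985). The named genes most like HES1 were FOXA2, ORAI3 (0.9972) and CDH3 (0.9966), though 2 unnamed probe sets had a higher r with HES1 than FOXA2 had. After FOXA2, the named genes most like CDH3 were CXXC5, a zinc finger protein (0.9987), and TBC1D10A, which activates the GTPase function of Rab proteins (0.9986). Between WNT7B and TMPRSS2 r was 0.995, and between either of them and FOXA2, HES1 or CDH3 it was 0.937 to 0.951.

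Among named genes WNT7B was most like OTUB2, a deubiquitinating enzyme (0.9995), DENND2D (0.9994) and ELFN1 (0.9991). Among named genes TMPRSS2 was most like FBXL5, a ubiquitin ligase subunit that senses iron (0.9991), NPEPPS, an aminopeptidase (0.9987), and TANC1 (0.9985). All of these named genes were in the selected table, since only its probe sets carry a gene name here. Their log2 differences ran from 0.60 (TBC1D10A) to 1.37 (CXXC5).

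Within the whole value table, 11 probe sets had a larger positive log2 difference than TMPRSS2 and 32 a larger one than FOXA2. For WNT7B there were 108, for CDH3 333 and for HES1 565. Among the 262 higher genes of the selected table TMPRSS2 stood at rank 5, FOXA2 at 18, WNT7B at 65, CDH3 at 170 and HES1 at 257. Without empty vector replicate 1 the log2 differences were 1.14 for TMPRSS2, 1.12 for FOXA2, 0.75 for WNT7B, 0.7 for CDH3 and 0.6 for HES1. The ranks were not recomputed for that setting. The median log2 difference was 0.74 for those 262 genes and -0.05 for all probe sets.

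**Figure D5:**
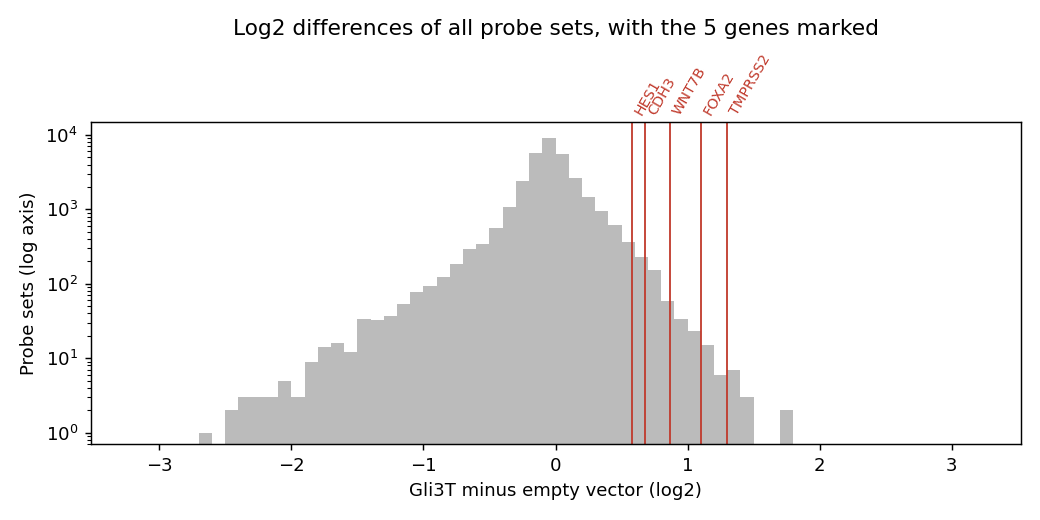
Histogram of the log2 difference, Gli3T minus empty vector, of all 32321 probe sets (vertical axis logarithmic), with red lines at the 5 genes. The lines run from HES1 at 0.58 to TMPRSS2 at 1.30, on the right-hand flank.

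The other genes of the pathways were sought in 13 lists holding 226 genes besides the 5. Only 4 of them could be named in the files: TLE1, TLE3, PTCH1 and GLI3, all in the selected table and so chosen by the same contrast. TLE1 and TLE3 encode Groucho-type corepressors, which HES proteins recruit and which also bind TCF factors. TLE3 averaged 11.25 ± 0.06 log2 in the arrays labelled Gli3T and 10.47 ± 0.09 in the arrays labelled empty vector (SD, n = 3 each), a difference of 0.78 ± 0.06 (SE). TLE1 averaged 9.07 ± 0.08 in the arrays labelled Gli3T and 8.37 ± 0.13 in the arrays labelled empty vector, a difference of 0.70 ± 0.09 (SE). Over the empty vector arrays TLE3 was lowest in replicate 3 and highest in replicate 1, and TLE1 was lowest in replicate 1 and highest in replicate 3. HES1 was lowest in replicate 3 and highest in replicate 2, so neither gene had its order of arrays. The nearest relatives FOXA1, FOXA3, HES2, HES4, WNT7A, CDH1, CDH2, TMPRSS3, TMPRSS4 and ST14 were not analysed here, nor were the Notch and WNT receptors and the keratins. None of the 32 markers of duct, acinar, endocrine, fibroblast, leukocyte or endothelial cells could be named either, so the cell line was not checked against its markers.

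For the value table as a whole, limma (moderated test on log2 values, Benjamini-Hochberg adjustment over 32321 probe sets) called 798 probe sets at an adjusted p under 0.05, 454 higher (1.40%) and 344 lower (1.06%) in the arrays labelled Gli3T. That count changed when 1 array was left out, which also made a group of 3 smaller, and the 2 effects were not told apart. Without Gli3T replicate 1, 2 or 3 limma called 0, 1 and 0, with 3471, 3751 and 3469 at an unadjusted p under 0.05, against 5285 with all arrays. Without empty vector replicate 1 it called 2178 (1051 higher, 1127 lower). Without replicate 2 it called 548 (225 higher, 323 lower) and without replicate 3 it called 69 (30 higher, 39 lower). Which direction had more calls thus depended on the arrays kept. Of the 534 probe sets called at 1.5-fold or more, 385 were in the selected table and 149 had no gene name here, so the table does not name every probe set that differs by this fit.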

How the data were processed

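Expression was measured in sorted Panc-1 cells on 6 Affymetrix arrays, 3 per group by the sample titles. The deposited values are log2 expression per probe set; the submitters' processing notes name RMA, oligo and limma and give no version. Not given in the sources used here were the array annotation, the genome build and the limits of the authors' selection. The value table was joined to the selected table by probe set number, which matched 398 of 405 genes. Rows whose first sample cell was 1.0 or less were taken as displaced. In 135 such rows this number went with the adjusted p computed here (r = 0.997 on the log10 scale, across genes). There was 1 unnamed column, which was not used. The genes and lists were chosen with earlier results of these data known.

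limma 3.58.1 in R 4.3.3 was fitted to all probe sets and arrays without a filter. On simulated data for Gli3T against the empty vector (32321 probe sets) it recovered 13% of planted differences of 0.5 log2 and 60% of those of 1.0, and called 5 unchanged probe sets. The simulated noise was normal and independent, with the same SD in both groups for a probe set. The real groups had median SDs of 0.08 (Gli3T) and 0.18 (empty vector), so these rates need not hold for them. Standard errors were computed from both groups' SDs. Of the selected table's symbols, 363 were current in the RefSeq table of GRCh38.p14, 40 were synonyms and 2 were not found. The named genes were the 5, GLI3, PTCH1, their nearest relatives, up to 4 called genes per list and the 3 genes most like each of the 5. The design meant the list genes to be tested; since only selected genes carry names, they are described. The number of arrays limits the precision; the smallest two-sided exact permutation p for 3 against 3 is 0.1. Other tools were matplotlib 3.10.9, NumPy 2.4.6, pandas 2.3.3 and Python 3.11.15. Alternatives tried were a replicate block, a mean trend, array weights, filters, normalization, centring, a fold limit and leaving out arrays.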

Additional observations from a re-analysis of the deposited data

How the results depend on the processing

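The log2 differences of the 5 genes stayed within 1 SD of the replicates in 50 of 55 recomputed values, and 0 reversed. Of the 50, the 5 with the replicate block could not move in a balanced design, and 5 re-read the same arrays from the selected table. Those with 1 array left out could not move by 1 SD either. Dropping an array from so small a group always shifts its mean by less. Centring on the array median subtracts 1 number per array, so it shifts all 5 genes by the same amount and does not test each gene. Among the 50, only the values normalized again were therefore a test of stability. The 5 that moved came from reading every cell of the selected table as headed, a setting added after seeing the data, which puts misplaced cells into the group: 1.34 for FOXA2, 0.48 for HES1, 0.68 for WNT7B, 0.93 for CDH3 and 1.51 for TMPRSS2. Since the groups did not overlap, leaving out an array could not turn a direction. The ranges without 1 array were 1.02 to 1.17 for FOXA2, 0.53 to 0.63 for HES1, 0.75 to 0.98 for WNT7B, 0.64 to 0.71 for CDH3 and 1.14 to 1.40 for TMPRSS2. The count of 798 probe sets was 1292 with a mean trend (744 higher, 548 lower). It was 7104 with array weights (3110 higher, 3994 lower), which gave empty vector replicate 1 a weight of 0.1331. Among probe sets at or above the median level it was 1446 (962 higher, 484 lower). It was 398 over the named probe sets alone, by construction, and 0 to 2178 with 1 array left out. With the replicate block limma called 240 probe sets (51 higher, 189 lower). Of the 4 related genes (GLI3, PTCH1, TLE1 and TLE3) it called 2, against all 4 with no block. Deviations from the group means correlated between same-numbered arrays at -0.304, -0.142 and 0.044, so the numbers were not taken to pair the arrays. Of those 4 genes 0 to 4 were called with 1 array left out. They were selected by this contrast, as were the 398 named probe sets, of which 391 were called with all arrays. Counting every probe set of a gene was not run, as only the selected table's probe set of each gene is known here. The cause of these shifts was not tested. Signal over background was not known.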
